A study of Homo sapiens with 2 samples.

Results

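The kidney lineage genes PAX2, PAX8, LHX1, AQP1, WT1, EYA1, SIX2 and GATA3 were taken as a fixed list of symbols and found through the gene symbol that the platform annotation gives each probe. All 8 were found, with 1 probe each, among 12445 genes named on the platform, and all 8 had a value on both arrays, as did 10469 of the genes. The study hybridised RNA of 293T cells kept with 10 µM Y27632 for 3 h or 6 h against RNA of untreated 293T cells, given a time of 0 h, with 1 dual-colour array for each time and no replicate. Y27632 inhibits the kinases ROCK1 and ROCK2, which drive actomyosin contraction. The titles of both arrays read control and a time, and the treatment is taken from the labels of the Cy3 channel. By these labels the treated RNA carried Cy3 and the untreated RNA Cy5 on both arrays, with no dye swap. The 293T line is a derivative of a human embryonic kidney cell line that carries adenovirus sequence and the simian virus large T antigen, and it is an immortalised line, not kidney tissue. The treatment cannot be told apart from the dye, from the time since the control was taken, or from handling. No vehicle is given for the control.

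The kidney forms from the intermediate mesoderm. PAX2, PAX8, LHX1 and GATA3 encode transcription factors of the nephric duct, the epithelial tube from which the ureteric bud and collecting system grow. WT1, EYA1 and SIX2 act in the surrounding mesenchyme, whose progenitors form the nephrons, and WT1 is later kept in podocytes, the filtering cells of the glomerulus. AQP1 is a water channel of the differentiated proximal tubule and descending thin limb. Much of this order of action is known from the mouse.

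The deposited values were log ratios of the channels of each array, read here in base 2. Which channel stands on top of the ratio is not stated in the labels. With treated RNA on top, a positive value would be a higher signal in treated cells, and with untreated RNA on top, a lower one. Signs are therefore given as deposited throughout, and no value is called a rise or a fall. A ratio holds no level, so whether 293T cells express these genes at all, and in what order, cannot be read from these values. Values were present for 10810 genes at 3 h and 10716 genes at 6 h, with a median of 0.02 and an SD across genes of 0.36 on each array. Error was taken from 572 genes with several probes, whose within-gene probe SD was 0.31 on the 3 h array, 0.33 on the 6 h array and 0.30 for the difference between the arrays. With 1 array per time this SD, which is not a spread between cultures, is the only error available, and no test between samples exists. The difference between the arrays had an SD of 0.29 across the 10469 genes with both values, close to its probe SD of 0.30.

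Values of the 8 genes stayed under 2-fold, and most were negative. None reached 1 log2 unit, a 2-fold difference, at either time, against 1.61% of all genes at 3 h and 1.43% at 6 h. With 8 genes, a count of 0 lies near those shares. The share of all genes farther from 0 ran from 13.1% for LHX1 to 93.9% for EYA1 at 3 h. At 6 h it ran from 11.9% for EYA1 to 88.9% for PAX8. At 3 h the values ran from −0.51 to 0.25 with a median of −0.30, and 6 of 8 were negative, where 47.5% of all genes were. At 6 h they ran from −0.54 to 0.41 with a median of −0.22, and again 6 of 8 were negative, where 47.3% of all genes were. The 6 negative genes differed between the arrays: PAX8, LHX1, WT1, EYA1 and SIX2 were negative on both, AQP1 at 3 h alone and PAX2 at 6 h alone. Negative values at both times were thus found for 5 of 8 genes, where 36.3% of all genes had them, and GATA3 was the 1 gene positive at both, where 40.4% of all genes were. Both arrays were read against untreated cells, possibly of the same preparation, and with the same dyes, so their values for a gene are not independent.

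**Figure D1:**
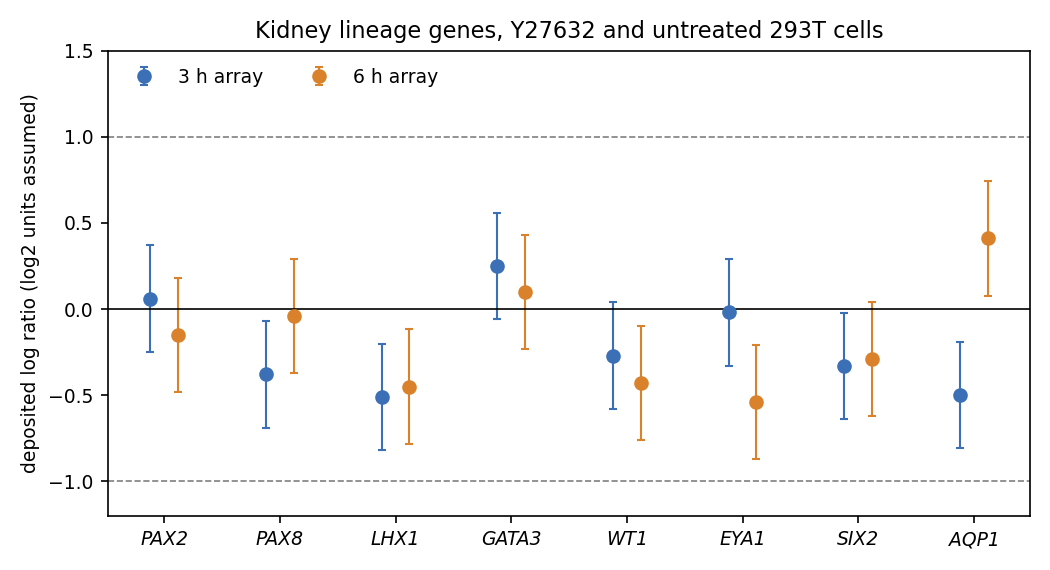
Deposited log ratio (log2 units assumed) of each kidney lineage gene on the 3 h array (blue, left of each pair) and the 6 h array (orange, right), 1 probe and 1 array each; bars are the within-gene probe SD of 0.31 at 3 h and 0.33 at 6 h, and dashed lines mark 1 unit either side of 0. All points lie inside the dashed lines, and AQP1 is the gene whose points stand farthest apart, at −0.50 and 0.41.

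Among the factors of the nephric duct, LHX1 had the mean of both arrays that lay farthest from 0, at −0.48. LHX1, a LIM-homeodomain factor needed for the nephric duct in the mouse, had a log ratio of −0.51 at 3 h, and of −0.45 at 6 h, sizes of 1.42-fold and 1.37-fold. These were 1.65 and 1.36 times the probe SD below 0, and 5.99% of genes at 3 h and 7.47% at 6 h lay lower. The LHX1 values of both arrays differed by 0.06.

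PAX8, a paired-box factor that acts with PAX2 in the earliest nephric lineage, had −0.38 at 3 h, a 1.30-fold size, and −0.04 at 6 h. Its 3 h value had 10% of genes below it, and its 6 h value had 42.3% below it, near the middle of the array. The difference of 0.34, 6 h minus 3 h, was 1.14 times the probe SD of a difference. PAX2, its closest relative among the 8 genes, had 0.06 at 3 h and −0.15 at 6 h, both inside the probe SD. The 2 paired-box genes thus lay 0.44 apart at 3 h and 0.11 apart at 6 h, PAX8 being the lower at 3 h and PAX2 at 6 h. GATA3, a zinc finger factor of the nephric duct and of T cells, had 0.25 at 3 h and 0.10 at 6 h. Both GATA3 values were also inside the probe SD, with 76.4% and 59.1% of genes below them.

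The 3 genes of the nephron-forming mesenchyme were negative on both arrays, as 36.3% of all genes were. The values of EYA1 and WT1 at 3 h and of SIX2 at 6 h were inside the probe SD. SIX2, a homeodomain factor that keeps nephron progenitors undifferentiated in the mouse, had −0.33 on the 3 h array and −0.29 on the 6 h array, which differ by 0.04. WT1, a zinc finger factor mutated in some Wilms tumours, had −0.27 at 3 h and −0.43 at 6 h, with 17.1% and 8.17% of genes below it. EYA1, a phosphatase and coactivator that binds SIX2 and its paralogs, had −0.02 at 3 h and −0.54 at 6 h. The EYA1 value at 6 h was the lowest of the 8 genes at that time, a 1.45-fold size, with 5.03% of genes below it, whereas at 3 h 45% of genes lay below it. Its difference of −0.52 was 1.74 times the probe SD of a difference and had 3.49% of genes below it. SIX2 and EYA1, whose proteins act together, lay 0.31 apart at 3 h and 0.25 apart at 6 h, EYA1 being the higher at 3 h and SIX2 at 6 h.

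AQP1 showed the largest difference between the arrays. It had −0.50 at 3 h, next to LHX1 at the low end of the 8 genes, and 0.41 at 6 h, the highest of the 8. The sizes were 1.41-fold and 1.33-fold in opposite directions, with 6.21% of genes below it at 3 h and 87.1% at 6 h. The difference of 0.91, a 1.88-fold size, was 3.04 times the probe SD of a difference, and 1.79% of all genes had a difference at least as large in either direction. It stayed under the 2-fold size that 1.20% of genes reached, so 0 of 8 genes passed that size in the difference. At 1.5-fold AQP1 was the 1 gene of 8 past the size in the difference, where 5.75% of all genes were. In base 2 no kidney lineage gene reached 1.5-fold on a single array, where 9.36% of genes at 3 h and 9.86% at 6 h did. Opposite signs at both times were found for 2 of 8 genes, AQP1 and PAX2, and for 20.8% of all genes. The change of AQP1 from a negative value at 3 h to a positive one at 6 h was shared with 10.4% of all genes, and 1 of the 8 genes showed it. A difference between the times cannot be told apart from one between the arrays.

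**Figure D2:**
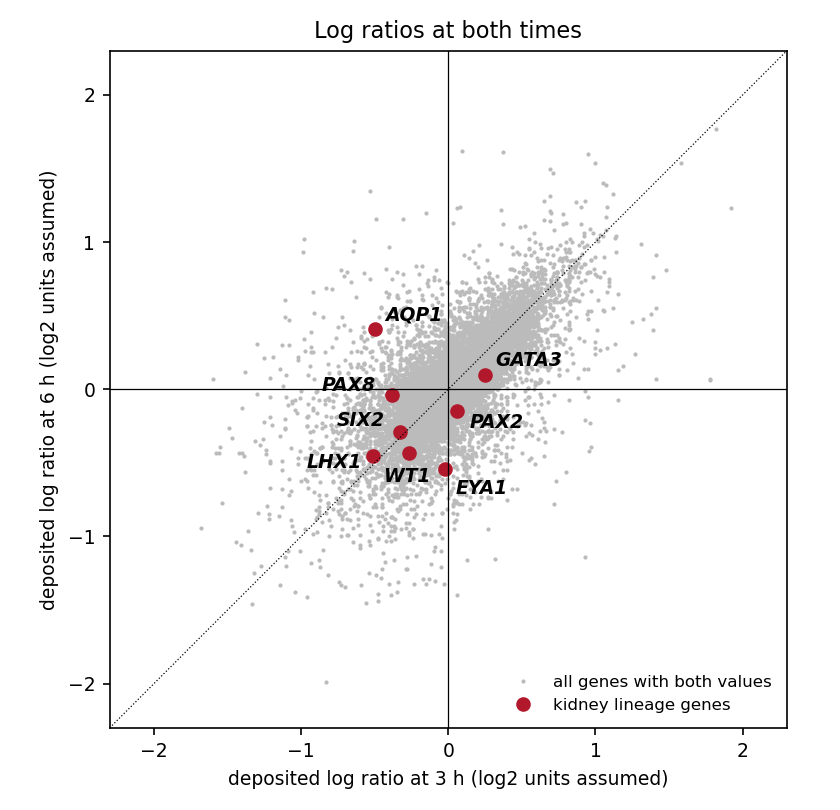
Deposited log ratio at 3 h (horizontal axis) and at 6 h (vertical axis), both in assumed log2 units, for the 10469 genes with both values (grey) and the 8 kidney lineage genes (red, named); the dotted line marks equal values. LHX1 and SIX2 lie close to the dotted line at negative values, and AQP1 lies well above it at −0.50 and 0.41.

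**Figure D3:**
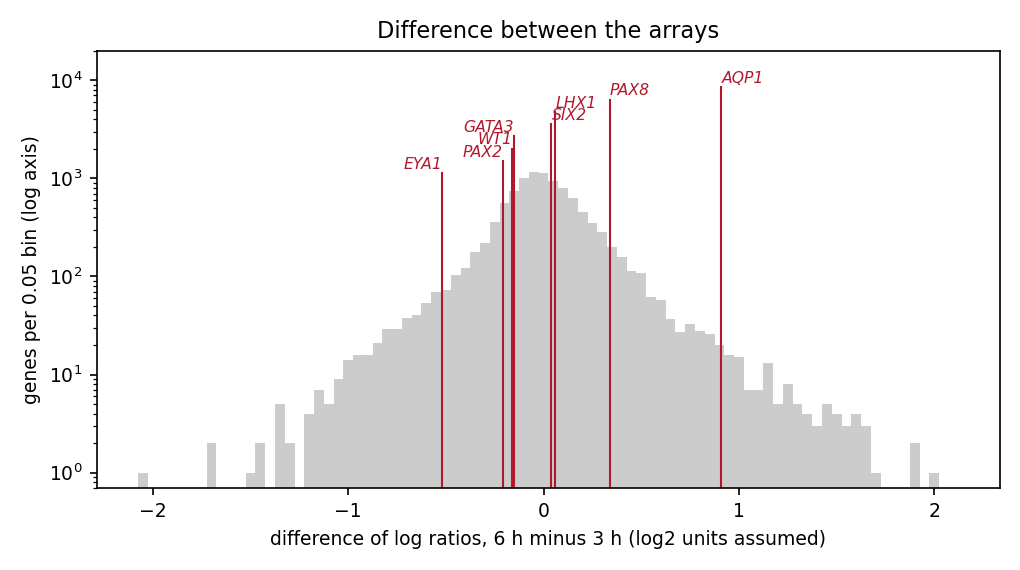
Number of genes per bin of 0.05 units (log axis) by the difference of the log ratios, 6 h minus 3 h, with red lines at the 8 kidney lineage genes. AQP1 at 0.91 stands in the right tail, EYA1 at −0.52 on the left side, and LHX1 and SIX2 close to 0.

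RefSeq promoter windows (GRCh38.p14), each of 250 bases before to 50 after a start site, were found for 6 of the 8 symbols, and 15 windows in all. LHX1 and EYA1 were not among the 6. The windows of SIX2, PAX8 and AQP1, which have 1 window each, are shown because SIX2 had nearly equal negative values on both arrays, PAX8 a negative value at 3 h that was close to 0 at 6 h, and AQP1 values of opposite sign. They are written 5′ to 3′ on the strand of the gene, and capitals mark the motifs CCAAT and TATAAA, and the motif GGGCGG, searched on both strands. On the other strand the last of them reads CCGCCC.
SIX2, chr2:45009403-45009702, minus strand: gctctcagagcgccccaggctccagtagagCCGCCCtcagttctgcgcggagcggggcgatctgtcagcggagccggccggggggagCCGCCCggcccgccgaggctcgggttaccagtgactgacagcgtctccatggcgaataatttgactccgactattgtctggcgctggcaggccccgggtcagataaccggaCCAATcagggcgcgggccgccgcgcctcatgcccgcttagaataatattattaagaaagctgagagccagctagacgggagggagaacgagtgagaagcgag
PAX8, chr2:113278872-113279171, minus strand: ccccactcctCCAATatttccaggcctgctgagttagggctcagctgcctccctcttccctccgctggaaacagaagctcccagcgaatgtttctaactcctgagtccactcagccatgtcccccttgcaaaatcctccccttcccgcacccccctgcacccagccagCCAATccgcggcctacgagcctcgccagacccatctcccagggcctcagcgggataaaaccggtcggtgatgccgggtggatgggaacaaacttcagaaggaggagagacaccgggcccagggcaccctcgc
AQP1, chr7:30911603-30911902, plus strand: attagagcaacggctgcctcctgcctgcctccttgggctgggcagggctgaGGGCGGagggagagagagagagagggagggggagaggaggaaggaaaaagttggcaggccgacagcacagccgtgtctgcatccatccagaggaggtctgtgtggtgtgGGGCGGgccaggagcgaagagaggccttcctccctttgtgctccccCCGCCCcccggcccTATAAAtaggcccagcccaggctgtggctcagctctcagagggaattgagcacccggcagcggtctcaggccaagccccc

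AQP1 holds TATAAA from −30 to −25 relative to its start site, and of the 6 genes GATA3 was the other with this motif in a window. TATAAA was present in 2 of the 15 windows and in 11.5% of 35116 such windows. SIX2 holds CCAAT from −52 to −48, and PAX8 holds it at −240 and −82 at the first base, a motif of 34.6% of windows. GGGCGG was found 3 times in the AQP1 window and at 2 places in the SIX2 window, and was present in 45% of windows. PAX8 has none of this last motif. The CArG box, which the actin-regulated factor SRF binds, was in 0 of the 15 windows and in 1.29% of all windows. GGAATG, the core that TEAD factors bind with the coactivators YAP and TAZ, was in 3 of the 15 windows and in 14% of all windows. The 3 belong to GATA3, PAX2 and WT1, each of which has several windows. SIX2 has 29 CG dinucleotides in its window, PAX8 13 and AQP1 10, where the median window has 14. These matches describe the letters of the windows, overlap no other searched motif in the printed sequences, and were not set against binding data.

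The nearest named genes with values on both arrays to either side of each of the 8 genes on the chromosome gave 16 neighbours. Their medians were −0.03 at 3 h and 0.04 at 6 h, with 9 and 7 of 16 negative, against medians of −0.30 and −0.22 for the 8 genes. Both neighbours shared the sign of the gene for 1 of 8 genes at 3 h, SIX2, and for 2 of 8 at 6 h, SIX2 and AQP1. Its neighbour SIX3, a homeodomain paralog of eye and forebrain development, had −0.65 at 3 h and −0.14 at 6 h. EPAS1, the hypoxia factor on the other side of SIX2, had −0.02 and −0.29. LHX1 stood between AATF at 0.24 and 0.12 and GGNBP2 at 0.74 and 0.37, opposite in sign to it on both arrays. AQP1 stood between GGCT, with 0.52 at 3 h and 0.38 at 6 h, and GHRHR, the growth hormone-releasing hormone receptor, with −0.04 and 0.04.

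Genes of other kidney compartments, on 7 further lists of 79 genes, were also negative more often than all genes. Of 51 with a value at 3 h, 37 were negative and the median was −0.15, and of 53 at 6 h, 36 were negative and the median was −0.17. Of 49 with both values, 28 were negative on both arrays, 57.1%, where 36.3% of all genes were. KRT19, a keratin of duct epithelia, had −0.73 at 3 h and −1 at 6 h. It was the 1 gene of 53 at 2-fold at 6 h, where 1.43% of all genes were, and 0 of 51 were at 3 h, where 1.61% of all genes were.

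In the nephron progenitor list, which holds partners of SIX2, 7 of 10 measured genes were negative at 3 h and 9 of 11 at 6 h, with medians of −0.17 and −0.26. CITED1, a transcriptional coregulator of the uninduced progenitor, had −0.48 at 3 h and −0.86 at 6 h. HOXD11, a patterning factor of the metanephros, had −0.35 and −0.71, and its paralog HOXC11 had −0.28 and −0.43. MEOX1 had −0.21 at 3 h and −0.50 at 6 h. All 4 were lower at 6 h than at 3 h, as WT1 and EYA1 were, whereas SIX2 was not, with −0.33 at 3 h and −0.29 at 6 h. Of the 10 genes of this list with both values, 9 were lower at 6 h, where 51.2% of all genes were. SALL1, chosen after its values were seen, went the other way, with −0.58 at 3 h and 0.42 at 6 h. A shared difference between the times was not tested.

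In the nephric duct and ureteric bud list, which leaves out the kidney lineage genes, all 10 measured genes were negative at 3 h, with a median of −0.15. Of these, GFRA1 at −0.01, EMX2 at −0.03 and ETV5 at −0.06, chosen after their values were seen, lay close to 0. At 6 h 9 of 10 were negative, with a median of −0.21, and EMX2 was positive at 0.32. Among the duct factors outside this list, PAX2 at 0.06 and GATA3 at 0.25 were positive at 3 h, and PAX8 at −0.38 and LHX1 at −0.51 were negative. WNT9B, a ligand of the duct that induces nephrons in the mouse, had −0.35 and −0.81. RET, the receptor through which GDNF drives budding, had −0.15 and −0.35. SPRY1, an inhibitor of receptor tyrosine kinase signalling, had −0.40 at 3 h and −0.17 at 6 h.

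The podocyte list split by gene. PODXL, the sialomucin podocalyxin, had 0.60 and 0.73, and CD2AP, an adaptor of the slit diaphragm, had 0.54 and 0.81. PLA2R1, a phospholipase receptor, had −0.78 and −0.50, and TCF21, a transcription factor, had −0.39 and −0.26. Medians over the 5 measured genes were 0.13 at 3 h and −0.26 at 6 h, while WT1, the factor of podocytes among the 8 genes, was negative at both.

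The proximal tubule genes, the compartment of AQP1, were negative for 8 of 9 at 3 h and 7 of 10 at 6 h, with medians of −0.21 and −0.18. MME, the peptidase neprilysin of the brush border, had −0.22 at 3 h but 0.84 at 6 h, and so changed sign between the arrays in the same way as AQP1, by 1.06. LRP2, the endocytic receptor megalin, had −0.14 and 0.74 and was chosen after its values were seen. SLC22A6, an organic anion transporter, had −0.67 and −0.37, SLC5A2, a glucose transporter, −0.43 and −0.25, and the cadherin gene CDH6 −0.39 and −0.28. These 3 were negative at both times, unlike AQP1.

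In the loop and distal tubule list all 4 genes measured at 3 h were negative, with a median of −0.37, and 3 of 6 were at 6 h, with a median of −0.11. POU3F3, a POU-domain factor, had −0.88 and −0.80, and SLC12A1, the salt cotransporter of the thick ascending limb, had −0.30 and −0.71. PVALB had −0.27 and −0.39. CDH16, a cadherin of kidney tubules, had −0.44 at 3 h and 0.18 at 6 h.

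The collecting duct list had medians of 0.11 over 9 genes at 3 h and −0.09 over 7 genes at 6 h. The sodium channel subunit gene SCNN1B had −0.67 at 3 h and −0.68 at 6 h, and SCNN1G, another subunit, had −0.36 and −0.12. ATP6V1B1, a proton pump subunit of intercalated cells, had 0.39 and 0.59, and SLC26A4, an anion exchanger of the same cells, had 0.27 and 0.21. For the 4 measured genes of the renal stroma the median was −0.10 at 3 h but 0.20 at 6 h. In it ALDH1A2, a retinoic acid synthesis enzyme, had 0.22 and 0.23, and PDGFRB had 0.00 and −0.17.

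**Figure D4:**
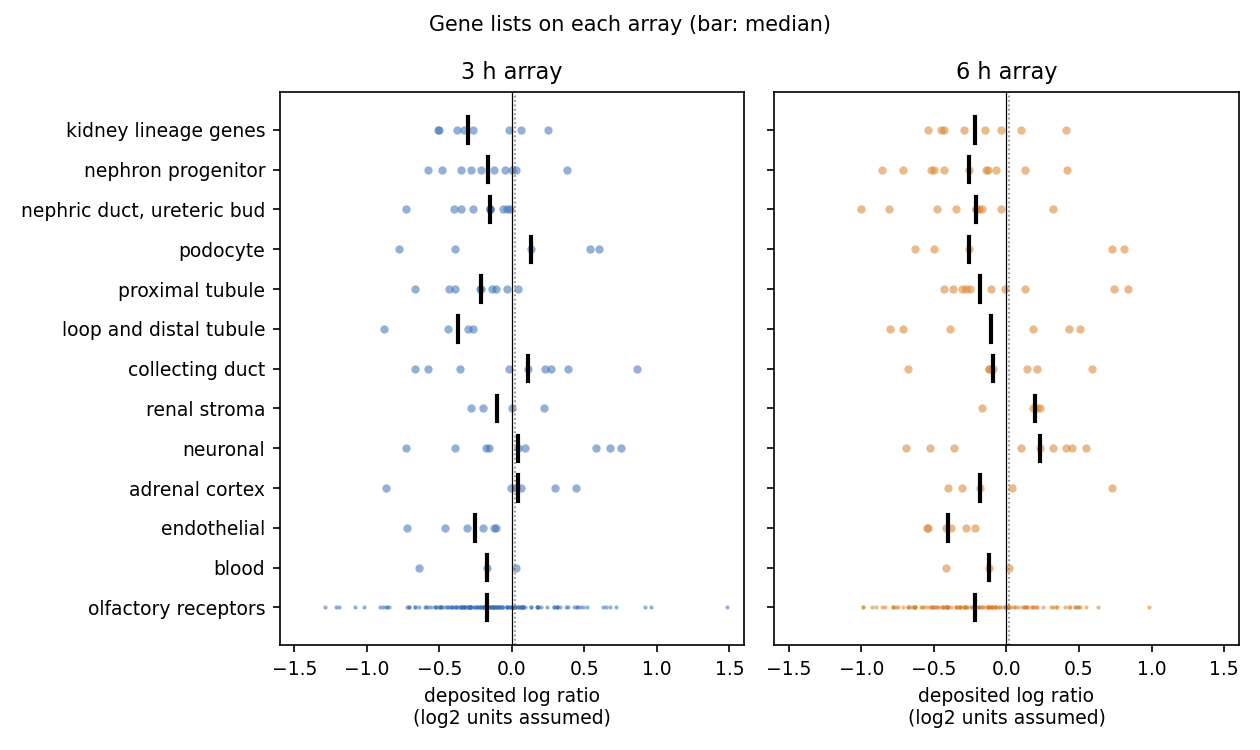
Deposited log ratios (log2 units assumed) of the genes in each list on the 3 h array (left) and the 6 h array (right), 1 point per gene; the black bar is the list's median, the solid line 0 and the dotted line the median of all genes at 0.02. The kidney lineage genes have medians of −0.30 and −0.22, and the olfactory receptors, in the bottom row, −0.17 and −0.22.

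Paralogs outside the kidney lineage list spanned a wider range than the 8 genes, with LMX1A at the low end. The paralogs are more than 8 in number, and a range widens with the number of genes. Of the other paired-box genes, 3 of 5 were negative at 3 h and 5 of 5 at 6 h, with medians of −0.16 and −0.35. PAX5, a factor of B cells and the nearest relative of PAX2 and PAX8, had −0.44 and −0.40, and PAX9 had −0.38 and −0.23. PAX1 had −0.16 and −0.63. In the LIM-homeobox family 5 of 7 were negative at 3 h and 4 of 6 at 6 h. LMX1A, a factor of the midbrain floor plate, was past 2-fold on both arrays, with −1.01 and −1.10, and LHX4 had −0.29 and −0.27. LHX3 had −0.35 and −0.12, and LHX6 had −0.11 and −0.32.

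The median of the other aquaporins was 0.05 over 10 genes at 3 h and −0.07 over 8 genes at 6 h. AQP8 had −0.41 and −0.16, AQP10 −0.37 and −0.12, and AQP4, the water channel of astrocytes, 0.21 and 0.36. MIP, the lens aquaporin, had 0.20 at 3 h and −0.62 at 6 h, a change of sign opposite to that of AQP1. The other SIX, EYA and DACH genes had medians of 0.11 over 7 genes at 3 h and 0 over 8 genes at 6 h. Of 7 with both values, 3 were negative on both arrays and 3 positive on both. The EYA1 paralogs EYA2, with 0.33 at 3 h and 0.44 at 6 h, and EYA3, with 0.28 and 0.37, were positive on both. EYA4, another paralog, was negative on both, as EYA1 was, with −0.09 and −0.20, inside the probe SD. It was chosen after its values were seen. DACH1, a partner of the EYA proteins, had 0.75 and 0.14. Of the 5 other GATA genes, 4 were negative at 3 h and 4 at 6 h, where GATA3 was positive but inside the probe SD. GATA4 was positive at 3 h, at 0.36, higher than GATA3 at 0.25, and had −0.06 at 6 h. GATA5 had −0.57 and −0.03, GATA1 −0.26 and −0.29, and GATA6 −0.26 and 0.00.

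Markers of other cell types were measured beside the kidney genes. The 9 measured neuronal genes had a median of 0.04 on the 3 h array and 0.23 on the 6 h array, with 4 and 3 negative and a range from −0.73 to 0.75 at 3 h and −0.69 to 0.55 at 6 h. NEFL, a neurofilament, had −0.73 and −0.69, the intermediate filament gene INA 0.58 and 0.45, SYT1 0.68 and 0.32, and STMN2 0.75 and 0.10. Genes of the adrenal cortex had medians of 0.05 and −0.18, with NR0B1 at −0.87 and −0.40 and CYP17A1 at 0.30 and 0.73. All 6 measured endothelial genes were negative on both arrays, with medians of −0.26 and −0.40, among them CDH5 at −0.72 and −0.55, KDR at −0.46 and −0.42, ESAM at −0.31 and −0.38, and PECAM1 at −0.11 and −0.54. The 3 measured blood genes had medians of −0.17 and −0.12, with CD14 at −0.17 and −0.42.

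Olfactory receptor genes, which are silent in most tissues outside the nose, had medians of −0.17 over 152 genes at 3 h and −0.22 over 130 genes at 6 h. Of 121 with both values, 70 were negative on both arrays, 57.9%, close to the 57.1% of the 7 kidney lists and above the 36.3% of all genes. The negative medians of the 8 kidney lineage genes were accompanied by negative medians of genes silent in most tissues, and the part of weak or absent expression in either was not tested. ROCK1, the target of the inhibitor, had 0.14 and 0.41, and ROCK2 had 0.39 and 0.38.

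The pair of LHX1 values was matched most closely by SRPX, at −0.52 and −0.45, HID1, at −0.50 and −0.46, and CHST6 and LIN7B, which shared the third place at −0.51 and −0.47 and at −0.53 and −0.45. Likeness was the Euclidean distance of the log ratios over 2 arrays, and was 0.01, 0.014, 0.02 and 0.02 for these genes. Within a distance of 0.1 lay 88 of 10468 genes.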

How the data were processed

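RNA of 293T cells was hybridised on 2 dual-colour arrays, 1 for each time of Y27632. The deposited table held 1 log2 ratio (base assumed) per probe and array for 24267 probes, with a median of 0 on each array; background correction, normalization, spot filter, log base and numerator were not given in the sources used here, and dyes are per the labels. In base 10, 1 SD of all probes would be 2.39-fold at 3 h, against 1.30-fold in base 2, and natural logarithms were tried as an alternative. No spot intensities were used, so the number of arrays limits the precision.

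In the platform annotation 13395 probes had 1 symbol, 0 had several and 10872 had none. RefSeq (GRCh38.p14) held 10822 of the symbols as current; 2446 older ones were replaced where a synonym was unique, and 127 stayed unchanged. Probes of a gene were averaged. With 1 array per time no test was made; counts and medians stand beside those of all genes. The counting was tested on simulated data with planted values far larger than those of the 8 genes, which checks the code alone. All 8 kidney genes are named, with up to 4 genes per list by the largest absolute mean of both arrays. Any list gene past 2-fold is named too. Genes outside this rule are marked as picked with values in view, and neighbours, ROCK1, ROCK2 and olfactory receptors were added later. The 8 genes and the lists were chosen with earlier results of these data known. Python 3.11.15 and pandas 2.3.3 were used.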

Additional observations from a re-analysis of the deposited data

Results flagged for a closer look

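Of the 8 kidney lineage genes, 2 had opposite signs at 3 h and 6 h. AQP1 had −0.50 and 0.41, a difference of 0.91 (6 h minus 3 h), and PAX2 had 0.06 and −0.15, a difference of −0.21. None of the differences given here was tested, since each time has 1 array. Of the 63 genes that the naming rule picked from the other lists, 11 had opposite signs. The rule ranks by the absolute mean of both arrays, in which opposite signs cancel. This count therefore cannot be set against the share of all genes. Without the rule, 13 of the 49 genes of the 7 further kidney lists with both values had opposite signs. LRP2, SALL1 and EMX2, chosen after their values were seen, are not counted among the 11, nor are other list genes outside the rule. From negative at 3 h to positive at 6 h, the differences were 1.06 for MME, 0.66 for SPI1, a factor of blood cells, 0.62 for CDH16, 0.46 for MEIS1 and 0.41 for TBX18. In the other direction they were −0.82 for MIP, −0.42 for GATA4, −0.41 for PAX3, −0.34 for CYP11A1, −0.24 for STAR and −0.15 for CD3E. Opposite signs were found for 20.8% of all genes, and the values of PAX2, GATA4 at 6 h (−0.06), SPI1 at 6 h (0.02), PAX3 at 3 h (0.06), STAR at 3 h (0.06), CYP11A1 at 3 h (0.03) and CD3E at 3 h (0.03) lay close to 0.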

How the results depend on the processing

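Median-centring of the arrays, quantile normalization, the probe farthest from 0, symbols as listed and, chosen after seeing the data, centring within each probe set moved none of the 24 values of the kidney lineage genes (3 h, 6 h and their difference) by more than 0.04, and changed none of the counts of the 8 genes. Each of the 8 genes has 1 probe and a current symbol, so the rules on probes and symbols could not move its values. Reading the values as natural logarithms put 1 gene past 2-fold in the difference between the arrays, where base 2 put 0: AQP1, at 1.31 in place of 0.91. At least 1.79% of all genes pass 2-fold in that reading, the share with a difference at least that of AQP1. A size of 1.5-fold in base 2 also gave 1 gene there, where 5.75% of all genes were. Natural logarithms with a size of 1.5-fold, chosen after seeing the data, put 2 genes past that size at 3 h (LHX1 and AQP1), 4 at 6 h (LHX1, AQP1, WT1 and EYA1) and 2 in the difference (AQP1 and EYA1), where base 2 put 0, 0 and 1. More of all genes pass this size too. Farther from 0 than the smallest gene counted lay 13.6% of all genes at 3 h (AQP1), 21.3% at 6 h (AQP1) and 7.27% in the difference (EYA1). These shares are lower bounds. Turning the sign of the ratio made the medians 0.30 at 3 h and 0.22 at 6 h and left 1 gene, GATA3, negative at both times, in place of 5. No paired analysis was possible because each time has 1 array with no replicate, and no replicate could be left out.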

Other observations

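Among the 49 genes of the 7 further kidney lists with both values, 8 were negative at 3 h and positive at 6 h, as AQP1 was, 16.3%, where 10.4% of all genes were. Of these 49 genes 2 reached 2-fold in the difference, where 1.20% of all genes did: MME and SALL1, a zinc finger factor of the nephron progenitor, which had −0.58 on the 3 h array and 0.42 on the 6 h array, 1 unit apart, and was chosen after its values were seen. LRP2, on the proximal tubule list as MME is, had a difference of 0.88. Probe identifiers of the 8 genes fall into 3 sets by their stem, and the medians of these sets over all named probes ran from −0.01 to 0.03 at 3 h and from −0.02 to 0.04 at 6 h. AQP2, the vasopressin-regulated water channel of the collecting duct, had 0.86 at 3 h and no value at 6 h, and was also chosen after its values were seen.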
